A study of Mus musculus with 6 samples.

Results

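The genes described here encode the machinery that takes a cell into and through mitosis. They are 42 genes chosen by name, of 41254 gene symbols in the deposited table, and were grouped by role into 13 cyclins and kinases, 16 genes of the kinetochore and the spindle checkpoint, 5 spindle genes and 8 cytokinesis genes. The role names are loose. The first group also holds the phosphatases Cdc25b and Cdc25c and the transcription factor Foxm1, and the second the anaphase genes Ube2c, Espl1 and Pttg1. RNA came from DN3a thymocytes of adult C57BL/6 mice, immature T cell precursors without CD4 or CD8 that assemble their T cell receptor beta gene. The tested libraries were 3 from mice with the genotype Tg_Cd2_GATA3, called transgenic below, and they were set against 3 from wild-type mice. By its title the study overexpressed GATA3, a transcription factor of T cell development, and no other allele or agent is named for either group. The genotype name contains Cd2, but the labels do not state which promoter drives the transgene. Also not given in the labels are the number of founder lines, the age in weeks and any pooling of mice.

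Mitosis starts when cyclin B bound to CDK1 becomes active, helped by the CDC25 phosphatases and by the Polo and Aurora kinases. Kinetochores then attach chromosomes to spindle microtubules while the checkpoint restrains the anaphase-promoting complex, and once that complex destroys securin and cyclin B the chromosomes part and the contractile ring divides the cell. Most of these genes are transcribed in G2 and mitosis, so in a tissue their RNA tracks dividing cells, and in the thymus division is known to surge after beta selection, the step that follows DN3a.

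The libraries held 39022281 to 42016334 fragments in the transgenic group and 45469459 to 46985605 in the wild-type group. Markers of DN3a cells were present in every library (8148 to 8830 CPM summed over 8 genes in transgenic and 7297 to 8813 in wild-type libraries, CPM being fragments scaled to library size). The B cell genes Ms4a1, Ebf1 and Pax5 had under 10 fragments in each library. Gata3, which checks the labels, was at 58.6, 53.6 and 61.6 normalised CPM (TMM scaling) in transgenic replicates 1, 2 and 3, and at 49.1, 38.2 and 43.5 in wild-type replicates 1, 2 and 3, with a log2 fold change of 0.41 ± 0.10 (SE; edgeR, adjusted p = 0.17). Its groups did not overlap. Transgenic replicate 3 and wild-type replicate 1 carried 16840 and 18522 fragments of 4 Y-linked genes, against 16 to 26 in the other 4 libraries. Each group thus held RNA of at least 2 animals, but nothing in the labels says that all samples of a group are separate animals, and p-values measure only how far these samples spread.

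All but 1 of the 42 mitotic genes lay below 0 in the transgenic group. Their log2 fold changes (transgenic over wild type) ran from -0.74 for Ttk to 0.06 for Pttg1, with a median of -0.48, which is a level of 0.718 times wild type. The median over all 14653 genes tested was 0.001, and 49.8% of those lay below 0. None of the 42 passed the threshold in edgeR's quasi-likelihood test, with Benjamini-Hochberg adjustment over all genes tested, where 0% of all genes were called lower and 2 genes, 0.0136%, higher. At an unadjusted p under 0.05, 41 of the 42 were lower, where 7.7% of all genes tested were, and 0 were higher, where 5.71% of all genes were. In 32 of the 42 every transgenic library lay below every wild-type library, which held for 10.1% of all genes, and in none did every transgenic library lie above, which held for 8.73%. Their smallest adjusted p was 0.135, for Melk and Ect2. DESeq2, which adjusted over 10318 genes, called 38 of the 42 lower and none higher, where it called 3.07% of all genes lower and 1.55% higher. In bulk RNA, fewer dividing cells and less of these RNAs in each dividing cell cannot be told apart.

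**Figure D1:**
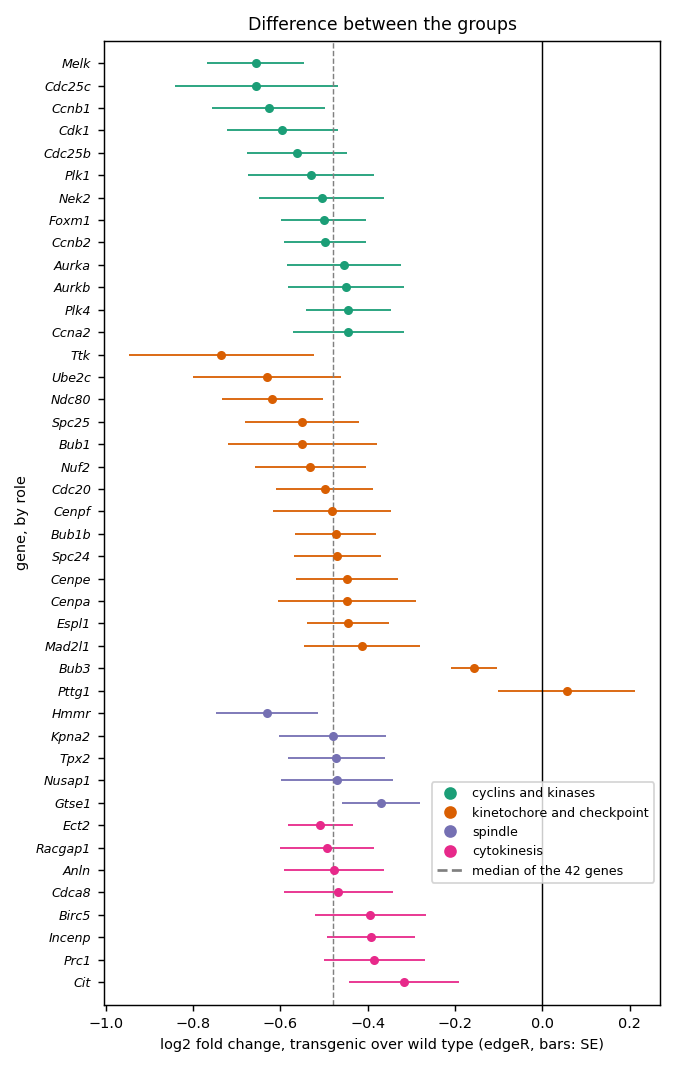
Log2 fold change of each of the 42 genes, transgenic over wild type (x axis; edgeR, points with SE bars, n = 3 libraries a group), by role and size (y axis). Points lie between -0.74 for Ttk and 0.06 for Pttg1, and the dashed line marks the median, -0.48.

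Promoters of such genes typically carry a CHR element (cell cycle genes homology region), bound by MuvB complexes that silence transcription in G0 and G1 and activate it in G2, and CCAAT boxes bound by NF-Y. The windows below come from RefSeq on GRCm38.p6, from 250 bases before to 50 bases after the gene's start, and are shown because they belong to the cyclin or kinase, kinetochore and cytokinesis gene with the smallest p among those with a CHR match. Capitals mark CHR matches (TTTGAA or TTTAAA) and CCAAT, searched on both strands, so TTCAAA and ATTGG also count, and overlapping matches were counted separately.
Ccnb2 (chr9:70421505-70421804, minus strand): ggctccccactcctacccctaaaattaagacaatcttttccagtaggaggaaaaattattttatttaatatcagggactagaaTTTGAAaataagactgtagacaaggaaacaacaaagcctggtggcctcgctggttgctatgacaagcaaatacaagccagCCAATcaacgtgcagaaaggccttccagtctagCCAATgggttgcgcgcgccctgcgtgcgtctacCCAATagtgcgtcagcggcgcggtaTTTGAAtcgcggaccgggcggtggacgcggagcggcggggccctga
Ndc80 (chr17:71526808-71527107, minus strand): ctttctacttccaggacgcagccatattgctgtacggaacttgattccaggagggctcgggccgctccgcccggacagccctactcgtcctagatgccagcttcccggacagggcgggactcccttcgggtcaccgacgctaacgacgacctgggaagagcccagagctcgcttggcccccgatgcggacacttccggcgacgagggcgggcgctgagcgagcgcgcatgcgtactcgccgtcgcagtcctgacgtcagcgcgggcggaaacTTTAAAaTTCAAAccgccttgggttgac
Ect2 (chr3:27153805-27154104, minus strand): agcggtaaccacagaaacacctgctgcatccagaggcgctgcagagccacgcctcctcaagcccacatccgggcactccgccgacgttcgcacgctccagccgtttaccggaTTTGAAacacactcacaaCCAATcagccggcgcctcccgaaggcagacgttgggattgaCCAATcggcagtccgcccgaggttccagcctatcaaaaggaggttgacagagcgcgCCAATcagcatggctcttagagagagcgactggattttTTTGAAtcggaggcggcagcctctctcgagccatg
Counting from 1 at the first transcribed base, the Ccnb2 window held 3 CCAAT boxes beginning at positions -87, -54 and -21, between CHR matches at -167 and 5. That of Ect2 held the same arrangement, with CCAAT boxes at -120, -79 and -23 between CHR matches at -138 and 16, while that of Ndc80 held CHR matches at 23 and 30 and no CCAAT. Windows were found for 35 of the 42 genes, and Ect2 has another overlapping entry that is not shown. A CHR match was present in 26 of them (74.3%), against 30.6% of 27025 genes with a window of the same length, and CCAAT in 25 (71.4%), against 41.1%. Both together were present in 22 (62.9%), against 12.2%. The E2F-type string GCGGGAA was in 1 of the windows (2.86%, against 5.29% of all genes) and the forkhead-type string TGTTTA in 5 (14.3%, against 15.1%). These are letter matches in a fixed window, and no measurement here shows that a factor binds them.

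Among the cyclins and kinases, all 13 lay below 0, at log2 fold changes with median -0.51 and a range from -0.66 to -0.44. Melk (ENSMUSG00000035683, chr4:44300876-44364675, plus strand), a kinase linked to proliferating progenitors, stood at 22.0, 21.8 and 22.1 normalised CPM in transgenic replicates 1, 2 and 3, and at 29.2, 36.9 and 37.9 in wild-type replicates 1, 2 and 3. The transgenic libraries nearly coincide, and all lie below the lowest wild-type library. Its mean was 22.0 ± 0.157 CPM in transgenic and 34.7 ± 4.72 CPM in wild-type cells (SD, n = 3 each), with a log2 fold change of -0.66 ± 0.11 (SE; edgeR, adjusted p = 0.135). Ccnb2 (ENSMUSG00000032218, chr9:70407692-70421547, minus strand), cyclin B2, a partner of CDK1, stood at 58.1, 65.9 and 53.7 normalised CPM in transgenic replicates 1, 2 and 3, and at 75.4, 87.3 and 88.3 in wild-type replicates 1, 2 and 3. The groups did not overlap, and wild-type replicate 1 was the lowest of its group. Its means, 59.2 ± 6.19 CPM in transgenic and 83.7 ± 7.20 CPM in wild-type cells (SD, n = 3 each), gave a log2 fold change of -0.50 ± 0.09 (SE; edgeR, adjusted p = 0.159). Foxm1 (ENSMUSG00000001517, chr6:128362967-128376146, plus strand), the forkhead factor that activates G2 and mitosis genes, stood at 32.8, 36.6 and 31.7 normalised CPM in transgenic replicates 1, 2 and 3, and at 42.7, 49.2 and 51.1 in wild-type replicates 1, 2 and 3. Again every transgenic value lay below every wild-type value, with a log2 fold change of -0.50 ± 0.10 (SE; edgeR, adjusted p = 0.159).

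Cdk1 (ENSMUSG00000019942, chr10:69335146-69352938, minus strand), the kinase that drives mitotic entry, had the highest FPKM of this role when all its transcripts were summed, at 77.6 ± 12.2 FPKM in transgenic and 114 ± 21.7 FPKM in wild-type cells (SD, n = 3 each). That rank rests on a retained-intron transcript of 475 bases with 27.3% of its FPKM, since the leading coding transcripts averaged 58.6 FPKM for Cdk1 and 73.9 FPKM for Ccna2 over the 6 libraries. It stood at 84.2, 93.1 and 74.2 normalised CPM in transgenic replicates 1, 2 and 3, and at 101, 136 and 143 in wild-type replicates 1, 2 and 3, so the groups did not overlap, and wild-type replicate 1 lay nearer to transgenic replicate 2 than to either other wild-type library. Its log2 fold change was -0.60 ± 0.13 (SE; edgeR, adjusted p = 0.159). The other B and A type cyclins and the CDC25 phosphatases, which remove the inhibitory phosphates of CDK1, were alike in direction, with log2 fold changes of -0.63 ± 0.13 for Ccnb1, -0.44 ± 0.13 for Ccna2, -0.56 ± 0.11 for Cdc25b and -0.65 ± 0.19 for Cdc25c (SE). Cdc25c had the lowest FPKM of all 42, at 4.30 ± 0.24 in transgenic and 6.65 ± 1.74 in wild-type cells (SD, n = 3 each). The Polo kinases Plk1 and Plk4, where Plk4 starts centriole duplication, had log2 fold changes of -0.53 ± 0.14 and -0.44 ± 0.10, the Aurora kinases Aurka and Aurkb -0.46 ± 0.13 and -0.45 ± 0.13, and the centrosomal kinase Nek2 -0.51 ± 0.14 (SE). For Ccna2, Aurkb and Nek2, wild-type replicate 1 fell inside the transgenic range. DESeq2 called all 13 lower, against 3.07% of all genes.

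**Figure D2:**
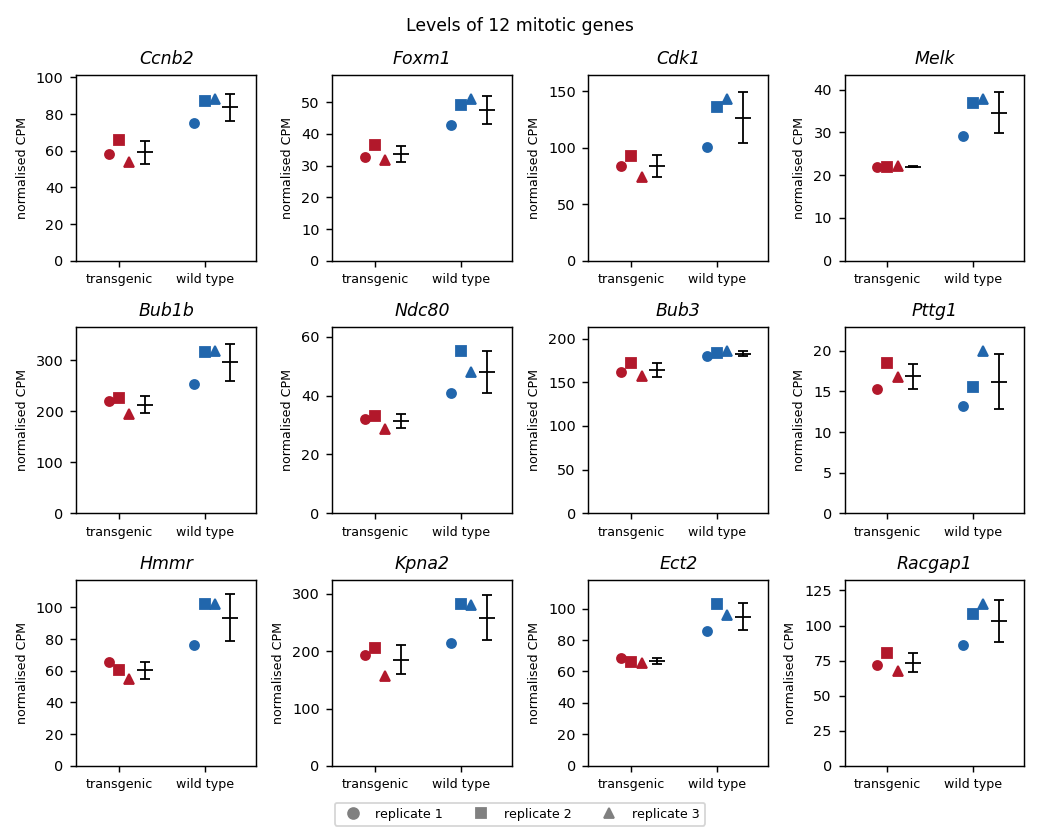
Normalised CPM (y axis, from 0) of 12 mitotic genes in each library of the transgenic (red) and wild-type (blue) groups, circle for replicate 1, square for replicate 2 and triangle for replicate 3, with mean and SD of 3 libraries in black. Ccnb2 lies at 53.7 to 65.9 in transgenic and 75.4 to 88.3 in wild-type libraries, and Pttg1, whose groups overlap, at 15.3 to 18.4 in transgenic and 13.2 to 19.9 in wild-type libraries.

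Of the 16 kinetochore and checkpoint genes, 15 lay below 0 and 1, Pttg1, above it, with a median log2 fold change of -0.48. Ndc80 (ENSMUSG00000024056, chr17:71496100-71526857, minus strand), the microtubule-binding subunit that names the NDC80 complex, stood at 32.0, 33.2 and 28.5 normalised CPM in transgenic replicates 1, 2 and 3, and at 40.9, 55.0 and 47.9 in wild-type replicates 1, 2 and 3. Every transgenic value was below every wild-type value, and the means were 31.2 ± 2.40 CPM in transgenic and 48.0 ± 7.03 CPM in wild-type cells (SD, n = 3 each), a log2 fold change of -0.62 ± 0.12 (SE; edgeR, adjusted p = 0.159). The other subunits of that complex had log2 fold changes of -0.53 ± 0.13 for Nuf2, -0.55 ± 0.13 for Spc25 and -0.47 ± 0.10 for Spc24 (SE), and the groups did not overlap for any of the 4 subunits. Spc24 (ENSMUSG00000074476, chr9:21755442-21760303, minus strand) stood at 50.03, 49.7 and 44.7 normalised CPM in transgenic replicates 1, 2 and 3, and at 57.6, 69.8 and 72.7 in wild-type replicates 1, 2 and 3 (edgeR, adjusted p = 0.159). Transgenic libraries thus spanned a narrower range than wild-type ones, where replicate 1 was lowest. Bub1b (ENSMUSG00000040084, chr2:118598211-118641591, plus strand), the checkpoint kinase-like protein BUBR1, stood at 219, 225 and 195 normalised CPM in transgenic replicates 1, 2 and 3, and at 254, 316 and 317 in wild-type replicates 1, 2 and 3. With no overlap, its log2 fold change was -0.47 ± 0.09 (SE; edgeR, adjusted p = 0.159).

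Bub3 (ENSMUSG00000066979, chr7:131560222-131571895, plus strand), which binds BUB1 and BUBR1 and also serves outside mitosis, had the highest FPKM of this role, at 85.3 ± 4.04 in transgenic and 94.8 ± 2.76 in wild-type cells (SD, n = 3 each). It stood at 162, 172 and 157 normalised CPM in transgenic replicates 1, 2 and 3, and at 179.5, 183 and 185 in wild-type replicates 1, 2 and 3. Its groups did not overlap but the log2 fold change was -0.16 ± 0.05 (SE; edgeR, adjusted p = 0.251), and over the 16 alternative fits it lay between -0.19 and -0.13 without a call. Pttg1 (ENSMUSG00000020415, chr11:43420250-43426251, minus strand), securin, the inhibitor of separase that anaphase destroys, stood at 15.3, 18.4 and 16.8 normalised CPM in transgenic replicates 1, 2 and 3, and at 13.2, 15.5 and 19.9 in wild-type replicates 1, 2 and 3. The groups overlapped, with a log2 fold change of 0.06 ± 0.16 (SE; edgeR, adjusted p = 0.92), and its sign turned without transgenic replicate 2 (-0.01), without wild-type replicate 1 (-0.07) and without both libraries with Y-linked RNA (-0.07). Pttg1 had 10 transcripts in the table, and the leading one held 48.9% of its FPKM. Espl1, separase itself, was at 44.8 ± 4.24 CPM in transgenic and 61.1 ± 4.72 CPM in wild-type cells (SD, n = 3 each), a log2 fold change of -0.45 ± 0.09 (SE).

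The other checkpoint genes hold anaphase until chromosomes are attached. Ttk, the MPS1 kinase, had the lowest log2 fold change of all 42, -0.74 ± 0.21 (SE), but its transgenic libraries ranged widely, at 19.6, 27.0 and 14.7 normalised CPM in replicates 1, 2 and 3, against 26.8, 39.6 and 35.9 in wild-type replicates 1, 2 and 3. Transgenic replicate 2 thus lay above wild-type replicate 1. Log2 fold changes were -0.55 ± 0.17 for the kinase Bub1 and -0.41 ± 0.13 for Mad2l1, which binds CDC20, and for both the highest transgenic library exceeded wild-type replicate 1. Cdc20, the activator of the anaphase-promoting complex, had -0.50 ± 0.11 and Ube2c, the ubiquitin-conjugating enzyme of that complex, -0.63 ± 0.17 (SE), with no overlap of the groups for either. The centromere genes Cenpa, a histone H3 variant, Cenpe, a kinesin, and Cenpf had log2 fold changes of -0.45 ± 0.16, -0.45 ± 0.12 and -0.48 ± 0.14 (SE), with overlap for Cenpf. DESeq2 called 13 of the 16 lower, all but Bub3, Cenpa and Pttg1, against 3.07% of all genes.

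All 5 spindle genes lay below 0 (median log2 fold change -0.47), each without overlap of the groups, which held for 10.1% of all genes. Hmmr (ENSMUSG00000020330, chr11:40701395-40733422, minus strand), which acts in spindle assembly, stood at 65.6, 60.6 and 54.6 normalised CPM in transgenic replicates 1, 2 and 3, and at 76.1, 102 and 102 in wild-type replicates 1, 2 and 3. Its means were 60.3 ± 5.47 CPM in transgenic and 93.4 ± 14.98 CPM in wild-type cells (SD, n = 3 each), a log2 fold change of -0.63 ± 0.12 (SE; edgeR, adjusted p = 0.159). Tpx2 (ENSMUSG00000027469, chr2:152847964-152895321, plus strand), which activates Aurora A at the spindle, stood at 116, 114 and 95.8 normalised CPM in transgenic replicates 1, 2 and 3, and at 124, 161 and 167 in wild-type replicates 1, 2 and 3, a log2 fold change of -0.47 ± 0.11 (SE; edgeR, adjusted p = 0.159). Gtse1 (ENSMUSG00000022385, chr15:85859745-85876573, plus strand), a microtubule-associated protein, stood at 23.4, 22.5 and 21.4 normalised CPM in transgenic replicates 1, 2 and 3, and at 27.3, 30.2 and 29.5 in wild-type replicates 1, 2 and 3. This gene had the smallest spread of the spindle genes in wild type, and a log2 fold change of -0.37 ± 0.09 (SE; edgeR, adjusted p = 0.159). Kpna2 (ENSMUSG00000018362, chr11:106988629-106999541, minus strand), an importin that carries spindle factors, had the highest FPKM of all 42, at 93.3 ± 13.0 in transgenic and 129 ± 20.9 in wild-type cells (SD, n = 3 each). It stood at 193, 206 and 157 normalised CPM in transgenic replicates 1, 2 and 3, and at 214, 283 and 280.0 in wild-type replicates 1, 2 and 3. The groups did not overlap, and its log2 fold change was -0.48 ± 0.12 (SE; edgeR, adjusted p = 0.177), while that of Nusap1, a protein that bundles spindle microtubules, was -0.47 ± 0.13 (SE).

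Likewise all 8 cytokinesis genes lay below 0, 6 of them without overlap, with a median log2 fold change of -0.43. Ect2 (ENSMUSG00000027699, chr3:27097222-27153878, minus strand), the exchange factor that switches on RhoA at the cell equator, stood at 68.5, 66.0 and 65.5 normalised CPM in transgenic replicates 1, 2 and 3, and at 85.7, 103 and 95.8 in wild-type replicates 1, 2 and 3. The transgenic libraries were close together, and the means were 66.6 ± 1.603 CPM in transgenic and 94.8 ± 8.65 CPM in wild-type cells (SD, n = 3 each). Its log2 fold change, -0.51 ± 0.07, had the second smallest standard error of the 42, after Bub3 (edgeR, adjusted p = 0.135). Racgap1 (ENSMUSG00000023015, chr15:99620496-99651656, minus strand), a subunit of the centralspindlin complex that binds ECT2, stood at 72.0, 80.7 and 67.4 normalised CPM in transgenic replicates 1, 2 and 3, and at 86.3, 108 and 115 in wild-type replicates 1, 2 and 3, with a log2 fold change of -0.49 ± 0.11 (SE; edgeR, adjusted p = 0.159). Anln (ENSMUSG00000036777, chr9:22332012-22389188, minus strand), anillin, a scaffold of the contractile ring, stood at 50.4, 52.0 and 42.3 normalised CPM in transgenic replicates 1, 2 and 3, and at 57.8, 67.5 and 76.0 in wild-type replicates 1, 2 and 3. Neither gene's groups overlapped, and Anln had a log2 fold change of -0.48 ± 0.12 (SE; edgeR, adjusted p = 0.159).

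The chromosomal passenger complex, which corrects attachments at the centromere and then moves to the midzone, was represented by Birc5 (survivin), Incenp and Cdca8 (borealin) beside the kinase Aurkb. Birc5 (ENSMUSG00000017716, chr11:117849251-117855743, plus strand) had the highest FPKM of this role, at 49.7 ± 5.61 in transgenic and 64.0 ± 9.69 in wild-type cells (SD, n = 3 each), and stood at 56.4, 55.1 and 43.8 normalised CPM in transgenic replicates 1, 2 and 3, and at 56.5, 74.0 and 73.5 in wild-type replicates 1, 2 and 3. For Birc5, wild-type replicate 1 lay just above transgenic replicate 1, and the log2 fold change was -0.39 ± 0.13 (SE; edgeR, adjusted p = 0.233). Incenp and Cdca8 had log2 fold changes of -0.39 ± 0.10 and -0.47 ± 0.13 (SE). Those of Prc1, which bundles midzone microtubules, and Cit, citron kinase of the midbody, were -0.38 ± 0.12 and -0.32 ± 0.13 (SE), and for both wild-type replicate 1 lay below the highest transgenic library. DESeq2 called 7 of the 8 lower, all but Cit, against 3.07% of all genes.

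The libraries of a group differed in the same way across nearly all 42 genes. Averaged over them, log2(CPM + 0.5) relative to each gene's mean over the 6 libraries was -0.19, -0.12 and -0.40 in transgenic replicates 1, 2 and 3, and -0.01, 0.35 and 0.36 in wild-type replicates 1, 2 and 3. Transgenic replicate 3 was the lowest of its group for 39 of the 42 genes and the lowest of all 6 libraries for 39, which held for 19.2% of all genes tested. Wild-type replicate 1 was the lowest of its group for 42 of the 42, against 37.5% of all genes. As the median over the 42 genes, it stood at 76.3% of the mean of wild-type replicates 2 and 3, and the transgenic mean stood at 85.9% of it and at 66.2% of the mean of replicates 2 and 3. Fragments of the 42 genes made up 0.29, 0.304 and 0.252% of the total in transgenic replicates 1, 2 and 3, and 0.325, 0.416 and 0.419% in wild-type replicates 1, 2 and 3.

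**Figure D3:**
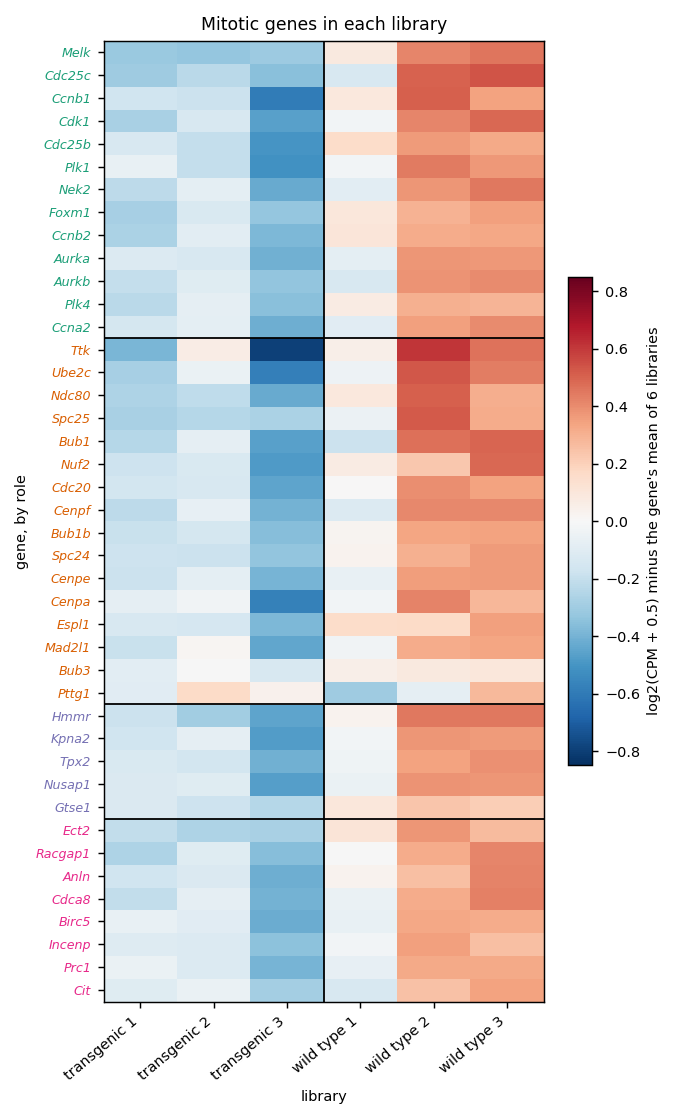
Colour gives log2(CPM + 0.5) minus the gene's mean over the 6 libraries, for the 42 genes (rows, named and coloured by role) in transgenic (left) and wild-type (right) libraries. Wild-type replicates 2 and 3 are the highest columns (means 0.35 and 0.36), transgenic replicate 3 the lowest (-0.40), and wild-type replicate 1 lies between (-0.01).

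The low library of each group was the one with Y-linked RNA. Between those 2 libraries, transgenic replicate 3 against wild-type replicate 1, 41 of the 42 genes were lower in the transgenic one, with a median log2 difference of -0.38 and no replicate check. Among the 4 libraries without Y-linked RNA, all 42 lay lower in the transgenic mean, with a median log2 difference of -0.51. For neither comparison is the share of all genes that lay lower given here. With Y-linked RNA as a covariate edgeR called 37 of the 42 lower (adjusted over all genes, where 1.4% were called lower and 0.348% higher), and without both such libraries 34 (1.32% lower and 0.432% higher). Without wild-type replicate 1, 37 were called lower (2.32% lower and 0.992% higher), with a median log2 fold change of -0.60. Called lower in each of these 3 fits and by DESeq2 were 33 genes, while Bub3 and Pttg1 were called in none of the 4. The share of all genes called in all 4 is not given here. These fits share libraries and are not independent of each other. Those that leave libraries out drop wild-type replicate 1, the lowest of its group for 42 of the 42 genes. Those 4 fits gave the most calls of the 16 alternatives. With no filter on low counts 19 were called lower (0.485% of all genes lower and 0.125% higher), and with the loci whose estimates failed kept, only Melk and Ect2 (0.129% lower and 0.496% higher). None of the 42 was called in the remaining alternatives. Those were both limma fits, median-of-ratios scaling, the replicate block, genes held to a mean FPKM of 5, and any other single library left out.

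Markers of other thymocyte stages are given for the same libraries. The 5 genes of CD4 and CD8 thymocytes, all tested, summed to 12.9 to 29.1 CPM in transgenic and 33.6 to 42.4 CPM in wild-type libraries, and all 5 lay below 0, Cd4, Cd8a and Cd8b1 with log2 fold changes of -0.89 ± 0.22, -1.34 ± 0.42 and -1.15 ± 0.26 (SE). Of 6 genes linked to cells after beta selection, 5 lay below 0 and the sum was 473 to 501.6 CPM in transgenic and 502.1 to 547 CPM in wild-type libraries. The sums of the first list did not overlap between the groups and those of the second were nearly touching, while its mean log2 level overlapped, at -0.08, 0.01 and -0.12 in transgenic replicates 1, 2 and 3, and 0.02, -0.03 and 0.21 in wild-type replicates 1, 2 and 3. Among its genes the groups did not overlap for Cd28 and Cd5 and overlapped for Tfrc, Cd27, Icos and Id3. Cd28, which rises after beta selection, had a log2 fold change of -0.34 ± 0.07 and Cd27, which also does, 0.16 ± 0.07 (SE). No gene of either list was called (edgeR, adjusted p from 0.159). The 8 DN3a markers overlapped between the groups in their sum, with a median log2 fold change of 0.06. Among them the groups did not overlap for Il2ra, at -0.17 ± 0.06, and Notch1, at 0.19 ± 0.06 (log2 fold change and SE), and overlapped for the rest. Markers of the earlier DN1 and DN2 stages summed to 76.2 to 99.3 CPM in transgenic and 60.5 to 83.8 CPM in wild-type libraries. They went both ways, 2 below 0 and 3 above, from -0.86 for Lyl1 to 0.66 for Spi1 (log2 fold change). Myeloid genes summed to 24.8 to 28.6 CPM in transgenic and 21.0 to 25.9 CPM in wild-type libraries, and erythroid genes to 2.78 to 7.15 CPM in transgenic and 0.702 to 3.63 CPM in wild-type libraries. Of 6 B cell genes only Cd79b passed the filter, at 55.7, 45.5 and 47.8 normalised CPM in transgenic replicates 1, 2 and 3, and at 50.7, 49.9 and 42.5 in wild-type replicates 1, 2 and 3, while the other 5 had at most 13 fragments in a library. The part of these cells in the lower mitotic RNA was not tested.

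Of 95 other genes of the same pathway, none was called by edgeR. At an unadjusted p under 0.05 in that test, 51 were lower and none higher, where 7.7% and 5.71% of all genes tested were. Of the 95, 81 lay below 0, against 49.8% of all genes tested, and the median log2 fold change was -0.28. Among 36 other kinetochore and centromere genes, 33 lay below 0 (median -0.33), the smallest p being those of Kntc1, a checkpoint subunit of the RZZ complex, with -0.48 ± 0.09, and Cenpw, a histone-fold centromere protein, with -0.68 ± 0.14 (SE). Among 26 other spindle and cytokinesis genes, 24 lay below 0 (median -0.35), the smallest p being those of Dlgap5, a spindle stabiliser, with -0.56 ± 0.10, and Cep55, which recruits the abscission machinery, with -0.55 ± 0.11 (SE). Control genes of mitotic entry had 13 of 16 below 0 (median -0.26), with -0.50 ± 0.14 for Ccnf, cyclin F, and -0.48 ± 0.13 for Cdca3 (SE). The anaphase-promoting complex and its regulators lay closest to the median of all genes, with 11 of 17 below 0 and a median of -0.06. There Fbxo5, the inhibitor EMI1, had -0.45 ± 0.11 and Ube2s, a ubiquitin-conjugating partner of Ube2c, -0.25 ± 0.09 (SE).

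**Figure D4:**
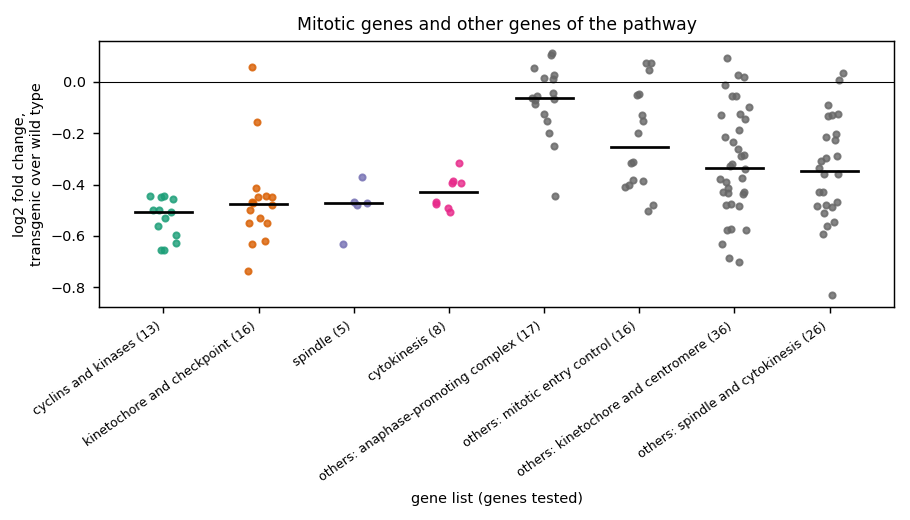
Log2 fold change, transgenic over wild type (y axis), of each gene in the 4 role groups (coloured) and in 4 lists of other genes of the pathway (grey), with the number tested beside each name and the median as a bar. Medians run from -0.51 for the cyclins and kinases to -0.06 for the anaphase-promoting complex.

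Per length, the mitotic genes ranged in FPKM from Cdc25c at 5.48 FPKM to Kpna2 at 111 FPKM over the 6 libraries. Kpna2, Cdk1, Bub3, Ccna2 and Bub1b headed the order of these means, but Cdk1 and Bub3 changed places between the groups, Cdk1 being at 77.6 ± 12.2 in transgenic and 114 ± 21.7 in wild-type cells and Bub3 at 85.3 ± 4.04 in transgenic and 94.8 ± 2.76 in wild-type cells (SD, n = 3 each). FPKM was lower in the transgenic mean for every gene but Pttg1, at 23.0 ± 2.15 in transgenic and 22.9 ± 5.23 in wild-type cells (SD, n = 3 each).

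**Figure D5:**
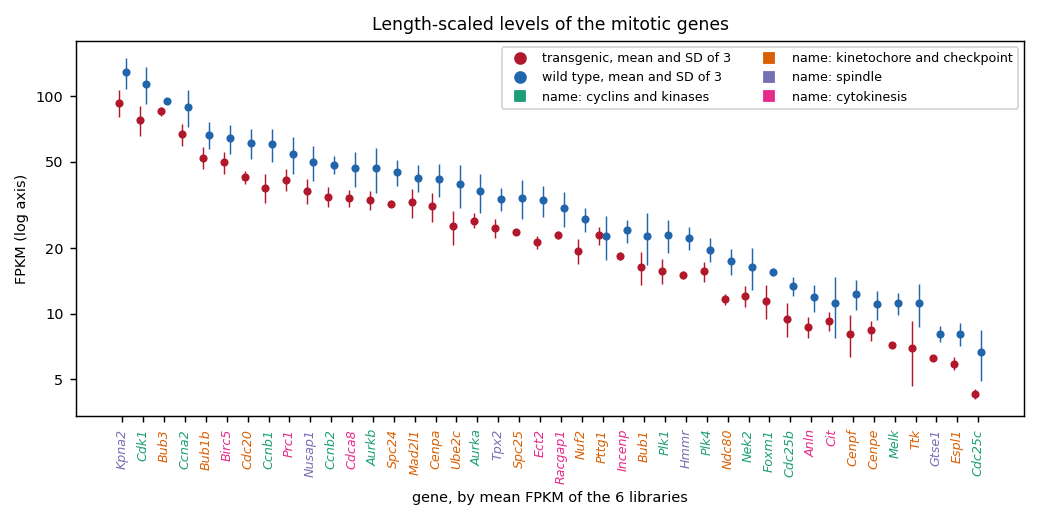
FPKM (y axis, log scale) of the 42 genes ordered by their mean over 6 libraries, transgenic in red beside wild type in blue (mean and SD of 3 libraries, names coloured by role). Kpna2 is highest at 93.3 ± 13.0 in transgenic and 129 ± 20.9 in wild-type cells, and Cdc25c lowest at 4.30 ± 0.24 in transgenic and 6.65 ± 1.74 in wild-type cells.

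The authors' deposited table compares single transcripts, 213 of them from these genes, of which 169 were tested. Of these 11 were marked significant in the authors' deposited table, all lower in transgenic cells, each with q = 0.0218, where 0.178% of all 44416 tested transcripts were marked lower. They were the leading transcripts of Bub1, Bub1b, Ccnb1, Ccnb2, Cdk1, Hmmr, Kpna2, Melk, Ndc80, Plk1 and Ube2c, with log2 fold changes in the authors' deposited table from -0.45 for Kpna2 to -0.64 for Ube2c. The leading transcript was lower for 41 of the 42 genes there and had a median log2 fold change of -0.47 in the authors' deposited table. Exons of Ccna2, Cdc25b, Cdc25c, Cdc20, Ube2c, Nusap1, Cdca8 and Prc1 overlap those of a gene on the other strand that the table lists, over 2.47% (Cdc25b) to 22.8% (Ube2c) of the member's exon bases. Over all libraries those other genes held from 11 fragments (Tnnc2, against 7864 for Ube2c) to 13545 (Exosc9, against 51054 for Ccna2). No source used here says whether counting used strand, so reads in those stretches cannot be assigned with certainty.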

How the data were processed

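RNA of 6 samples was depleted of ribosomal RNA and sequenced, per the labels' protocols. The submitters' processing notes name TopHat2, Cuffdiff and the mm10 build. Not given in the sources used here are versions, annotation and strand setting. Per the file headers, the deposited table lists an estimated count of fragments and an FPKM value per transcript and library, and the authors' own group FPKM, log2 fold change, p-value and q-value. Externally scaled fragments, a deposited signal, differ from raw fragments by 1 factor per library and were left aside.

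The estimated counts of a symbol's transcripts were added up and rounded. The 197 genes at loci marked HIDATA (failed estimates, none of the 42 genes among them) were left out. The filter filterByExpr (count of at least 10, total of at least 15) passed 14653 genes, all 42 among them. The test was edgeR's quasi-likelihood test (version 4.0.16 in R 4.3.3, TMM scaling, no covariate, two-sided, Benjamini-Hochberg over all genes, threshold 0.05). Standard errors derive from the F statistic. The common biological coefficient of variation was 19.5%, and at these depths counting error adds little to it. No 2 libraries of a group matched within sampling noise (chi-square of 16.7 to 44.5 per gene). The scripts were tested on simulated data. Alternatives were DESeq2 1.42.0, limma 3.58.1 on log2(FPKM + 0.1) and log2(FPKM + 1), other filters and scaling, a replicate block, a covariate for Y-linked RNA, and leaving out libraries.

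The genes, the lists and the alternatives were chosen with earlier results of these data known. Values in every library are given for the 3 genes with the smallest p and the one with the highest FPKM in each role, and for Pttg1, whose sign was opposite. Ttk was chosen after its values were seen. From each other list the 2 genes with the smallest p are named. Positions are those of GENCODE M21 (GRCm38), matched by gene ID, and all 42 overlapped the locus in the table. Of the other pathway symbols listed, 95 of 99 were in the table.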

Additional observations from a re-analysis of the deposited data

How the results depend on the processing

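The median log2 fold change of the 42 genes stayed below 0 in all 16 alternatives, from -0.60 without wild-type replicate 1 to -0.40 without transgenic replicate 3, moving by less than the SD of the genes' mean log2 level between libraries (0.215, the larger of the groups). Whether single genes were called did depend on the fit, and the cause was not tested. The number called, 0 in the fit reported, was 38 with DESeq2, 37 with Y-linked RNA as a covariate, 34 without the libraries with Y-linked RNA, 19 with no filter on low counts and 2 with the failed loci kept, all lower. Leaving out each library in turn gave 0 to 37, the 37 being those without wild-type replicate 1 and every other such fit giving 0. It was 0 with both limma fits, with median-of-ratios scaling, with the replicate block and with genes held to a mean FPKM of 5.

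Over all genes, 2 were called, against 477 with DESeq2, 260 without the libraries with Y-linked RNA, 256 with the covariate, 127 with no filter, 92 with the failed loci kept, 14 with the replicate block, 4 with limma on log2(FPKM + 0.1), 1 with genes held to a mean FPKM of 5, and 1 to 498 without 1 library. Of 672 values of single genes under the alternatives, 167 gained a call and 3 changed sign, all of Pttg1, which was -0.072 without the libraries with Y-linked RNA and ran from -0.073 (without wild-type replicate 1) to 0.23 without 1 library, with -0.0099 without transgenic replicate 2. Whether the replicate numbers pair the samples is not given in the labels. Deviations of same-numbered libraries from their group means correlated at 0.18, 0.138 and 0.00165, and not every library correlated best with its own number. With 3 libraries a group such correlations cannot decide it, and the samples were treated as unpaired. Depth limits little here, the rarest of the 42, Cdc25c, having at least 321 fragments per library.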

Other observations

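The leading transcript was annotated as protein coding for 40 of the 42 genes, and it held a median of 86% of the gene's FPKM. The exceptions were Cenpa, whose leading transcript is annotated for nonsense-mediated decay and held 49.0% of its FPKM, and Cit, whose leading transcript is annotated as a retained intron and held 32.3%. The first was at 19.2, 15.3 and 12.6 FPKM in transgenic replicates 1, 2 and 3, and 14.6, 22.3 and 22.9 FPKM in wild-type replicates 1, 2 and 3. The retained-intron transcript of Cdk1, of 475 bases, was at 24.1, 24.1 and 15.8 FPKM in transgenic replicates 1, 2 and 3, and 22.5, 37.0 and 32.9 FPKM in wild-type replicates 1, 2 and 3, and its main coding transcript was at 47.6, 51.3 and 45.7 FPKM in transgenic replicates 1, 2 and 3, and 56.4, 74.2 and 76.4 FPKM in wild-type replicates 1, 2 and 3. The libraries were made from total RNA depleted of ribosomal RNA, and the estimated split of fragments among transcripts that share exons is uncertain.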
